A study of Homo sapiens with 12 samples.

Results

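The genes of cholesterol and fatty acid synthesis were followed in RNA-seq of a colon cancer line and of a sub-line labelled as depleted of ribosomal protein uL3. The members were chosen by name: 5 regulators of the SREBP pathway, 18 enzymes of sterol synthesis, the sterol carrier STARD4 and 7 enzymes of fatty acid synthesis, making 31 of the 60617 genes in the files. All 31 passed the filter on low counts, which kept 15692 genes. The parental line was HCT 116p53-/-, derived from a human colorectal carcinoma and lacking p53. The sub-line, uL3ΔHCT 116p53-/-, was derived from it, is given in the labels as HCT 116p53-/- RPL3 KO, and is described by the study's methods as stably silenced for uL3, the protein that RPL3 encodes. p53 was therefore absent from every group, and the number of clones behind the sub-line is not given in the sources used here. Cells of both lines were treated for 24 h with 5 nM actinomycin D (Act D), an inhibitor of rRNA transcription at low dose, or with vehicle. Each of the 4 groups had 3 libraries, given in the labels as biological replicates, and p-values measure the spread between these libraries.

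Cholesterol is built from acetyl-CoA through mevalonate, isoprenoid units, squalene and a series of sterols, and fatty acids are built from the same acetyl-CoA by carboxylation, chain elongation and desaturation. Both routes are under SREBP transcription factors, which are made as precursors in the membrane of the endoplasmic reticulum. SCAP escorts the precursors to the Golgi for cleavage when sterols are scarce, and INSIG proteins hold them back when sterols are abundant. The freed factors enter the nucleus and bind sterol response elements in the promoters of their targets, usually next to sites for NF-Y, which binds CCAAT, and for Sp1, which binds GC-rich boxes.

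The promoter letters were read first, since they are a property that the genes may share and that the choice of members did not use. Promoters of 27 members were matched in RefSeq on GRCh38.p14, each from 250 bases before the transcript's start to 50 after it, and ACAT2, FDFT1, SQLE and FASN were not matched. On either strand, CCAAT was found in 17 of these 27 promoters (63.0%), against 35.7% of all 27305 promoters and 36.6% of the promoters of tested genes. The GC box GGGCGG was in 25 of 27 (92.6%), against 44.6% of all promoters and 69.6% of those of tested genes, and the E-box CACGTG was in 4 (14.8%) against 7.43% and 9.87%. The classical sterol response element, whose letters are the first capitals of the SREBF2 stretch below, was in the promoter of SREBF2 alone among the members (3.7%), and in 0.0476% of all promoters. The looser form TCACNCCAC, which overlaps it, was again in SREBF2 alone, against 1.15% of all promoters. A match of letters is a description and not a binding site, and other forms of the element were not searched.

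Stretches upstream of the start of 6 members are printed 5′ to 3′ on the gene's strand, with CCAAT or its reverse complement, and the sterol response element, in capitals. SREBF2 was chosen for its sterol response element, HMGCS1, MSMO1, EBP and STARD4 because they were higher in the libraries labelled uL3Δ, and LSS because it was lower there. All 6 hold CCAAT, and the 10 members whose matched promoter lacked it, some higher and some lower there, are not printed. They lie at chr22:41832945-41833104 (plus strand), chr5:43313513-43313582 (minus), chr4:165327469-165327666 (plus), chrX:48521608-48521798 (plus), chr5:111512591-111512715 (minus) and chr21:46228825-46228944 (minus), before the first annotated base of each gene in RefSeq and GENCODE.
SREBF2: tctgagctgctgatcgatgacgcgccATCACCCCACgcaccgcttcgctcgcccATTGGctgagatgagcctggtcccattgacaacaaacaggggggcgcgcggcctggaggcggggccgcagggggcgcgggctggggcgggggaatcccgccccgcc
HMGCS1: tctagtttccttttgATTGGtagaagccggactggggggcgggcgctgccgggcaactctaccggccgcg
MSMO1: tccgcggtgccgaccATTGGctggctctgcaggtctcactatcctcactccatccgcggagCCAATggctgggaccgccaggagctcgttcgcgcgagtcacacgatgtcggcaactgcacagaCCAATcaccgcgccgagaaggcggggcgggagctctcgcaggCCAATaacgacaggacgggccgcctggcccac
EBP: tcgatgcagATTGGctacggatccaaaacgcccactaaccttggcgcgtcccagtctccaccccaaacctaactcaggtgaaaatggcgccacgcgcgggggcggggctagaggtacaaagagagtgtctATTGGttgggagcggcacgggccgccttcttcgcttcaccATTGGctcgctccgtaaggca
STARD4: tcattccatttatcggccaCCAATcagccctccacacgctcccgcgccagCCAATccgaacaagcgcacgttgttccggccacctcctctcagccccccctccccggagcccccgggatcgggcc
LSS: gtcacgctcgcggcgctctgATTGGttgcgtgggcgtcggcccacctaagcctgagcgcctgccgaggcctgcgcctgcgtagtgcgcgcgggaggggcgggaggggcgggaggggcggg
CCAAT was present on both sides of the line comparison described next: with vehicle, 8 of the 17 members that held it were higher in the libraries labelled uL3Δ, 3 were lower and 6 did not pass the test, and of the 10 without it 5 were higher, 3 lower and 2 did not pass.

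RPL3, the gene targeted in the sub-line, was checked first. Its level, in CPM (read counts relative to library size, scaled with TMM factors), was 1151, 1121 and 1141 in vehicle-treated HCT 116p53-/- cells and 1188, 1337 and 1202 in the vehicle-treated libraries labelled uL3Δ. With Act D it was 1137, 1132 and 1112 and 1259, 1132 and 1279 in the same order. The libraries labelled uL3Δ were not lower in RPL3 under either treatment (log2 fold change 0.13 ± 0.08, adjusted p = 0.15 with vehicle; 0.12 ± 0.08, adjusted p = 0.19 with Act D), while scaling by library size alone gave values of the other sign (-0.11 and -0.13). The RNA thus does not show the depletion that the label names, and the groups are called by their labels below. Here and throughout, every fold change is a log2 difference ± SE and every adjusted p is from edgeR's quasi-likelihood test on all 12 libraries, adjusted over the 15692 genes by Benjamini-Hochberg.

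Total counts were between 10087925 and 21138886 per library. The labelled cell type was checked on markers of colon epithelium: 6 of 11 were at 1 TPM or more in HCT 116p53-/- cells and 4 of 11 in the libraries labelled uL3Δ, with summed levels of 1262 to 1421 TPM and 570.4 to 737 TPM. These sums carry a shift of all genes, since the median gene of the libraries labelled uL3Δ was lower by 0.48 in log2 TPM for vehicle and by 0.49 for Act D. The list did not move as 1 block. CDH1 and CDX2 were between 0.438% and 1.2% of their parental CPM in the libraries labelled uL3Δ, and KRT19 was at 10.8 to 18.1 TPM there against 345 to 404 in HCT 116p53-/- cells and EPCAM at 12.9 to 19.3 against 81.1 to 109.9. The keratins KRT18, at 327 to 409.6 TPM there against 327 to 393, and KRT8, at 215 to 292 against 470.4 to 544, remained at these levels, and the other 5 were under 1 TPM in every library. Of 7 adipocyte markers 2 had a mean of 1 TPM or more in the libraries labelled uL3Δ. They were FABP4, a fatty acid carrier, and PPARG, a lipid-sensing nuclear receptor. In HCT 116p53-/- cells PPARG alone did with vehicle, and the same 2 did with Act D. Sums were 762 to 1002 TPM in the libraries labelled uL3Δ against 5.25 to 14.4 in HCT 116p53-/- cells. In the former LEP was at 0, ADIPOQ and PLIN1 at 0.09 TPM or less, and CIDEC and LPL at 0.23 or less. Fibroblast markers summed to 8.28 to 12.8 TPM in the libraries labelled uL3Δ, against 1.76 to 4.31 in HCT 116p53-/- cells. Of these 6 markers, 3 had a mean of 1 TPM or more in the former and 1 in the latter. COL3A1 (4.4 to 7.76 against 0.03 to 0.12 TPM) and LUM (2.04 to 4.99 against at most 0.07) were higher. COL1A1 was mostly lower, at 0.79 to 1.47 against 1.4 to 3.91 TPM. Markers of blood cells and of hepatocytes each summed to at most 1.44 TPM in any library. The part of these marker differences in the results below was not tested. In bulk RNA, fewer cells that express a gene and less RNA per cell cannot be told apart.

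Levels were compared between genes per length, in the deposited TPM within 1 group. FASN, the fatty acid synthase, had the highest level of the 31 in vehicle-treated HCT 116p53-/- cells at a mean of 121 TPM, followed by FDPS, which makes farnesyl diphosphate, at 88.5 and SCD, the stearoyl-CoA desaturase, at 87.2. FADS2, the desaturase of polyunsaturated fatty acids, had the lowest at 2.50. With vehicle in the libraries labelled uL3Δ the order began with FDPS at 126, FDFT1, the squalene synthase, at 77.0 and SCD at 58.1, and ended with INSIG2 at 2.46. Members were not tested between the lines in TPM, because of the shift of the median gene given above, which was -0.02 with TMM-scaled counts. Relative to the median gene, 18 of the 31 members were higher and 13 lower in TPM in the vehicle-treated libraries labelled uL3Δ.

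**Figure D1:**
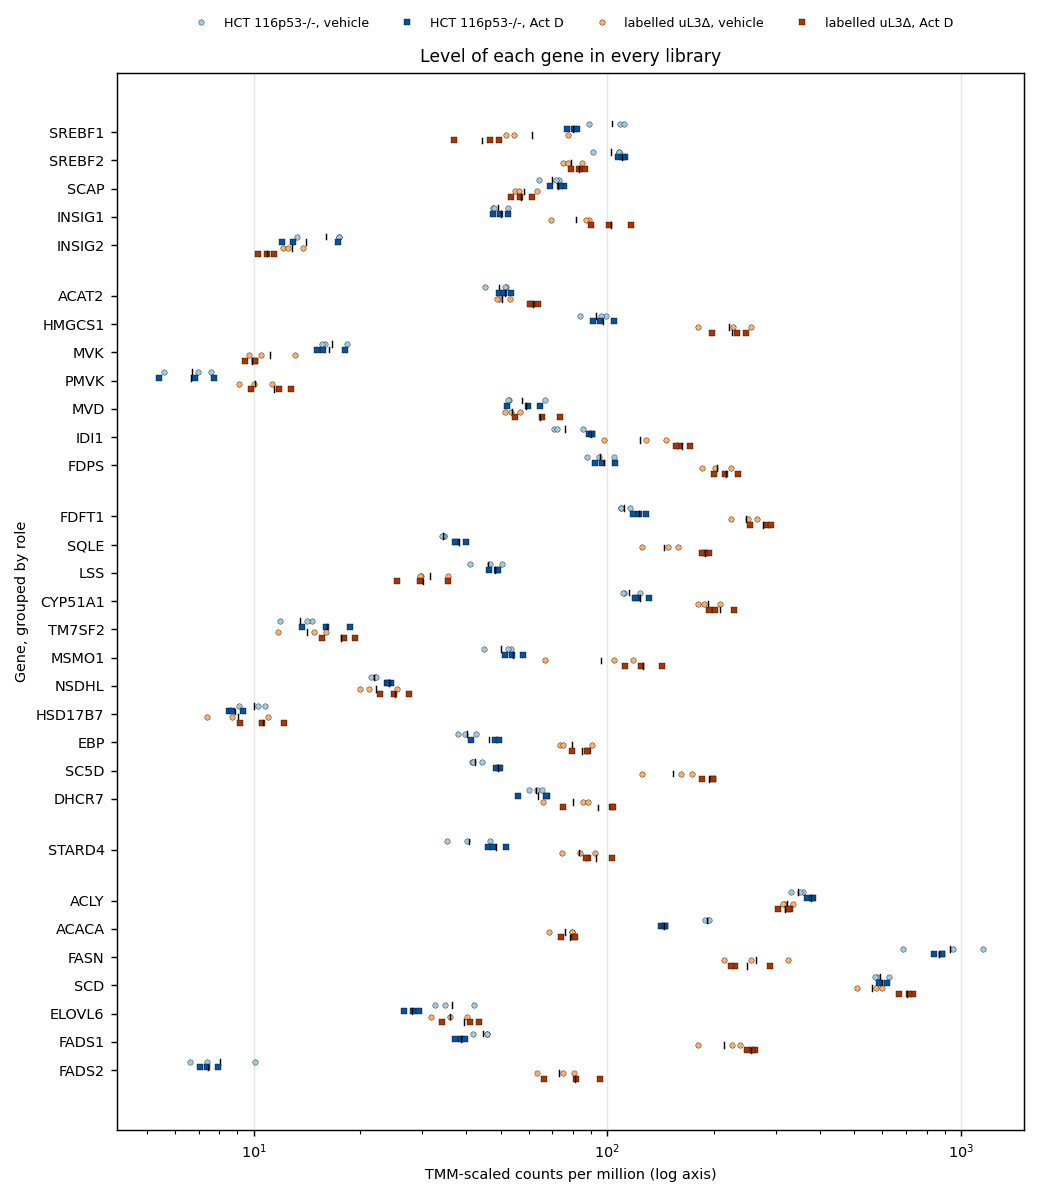
Level of each of the 31 genes in the 12 libraries, in TMM-scaled CPM on a log axis, with 1 point per library and a short bar at the mean of each group of 3. FADS2, FADS1, SQLE and SC5D have their libraries labelled uL3Δ clearly right of those of HCT 116p53-/- cells, FASN and ACACA have them left.

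The comparison of the lines asked which of these genes differ without the drug. With vehicle, enzymes of the sterol route were mostly higher in the libraries labelled uL3Δ, the 2 desaturases FADS1 and FADS2 were higher by the most, and ACACA and FASN, which catalyze the first committed step and the chain assembly of fatty acid synthesis, were lower. SREBF1 and SREBF2, which encode the SREBP factors, were lower. Of the 31 genes 22 passed the test (71.0%), while 71.3% of all genes tested did, so that the number called was at the background. The members called were 15 higher (48.4% against 35.1% of all genes) and 7 lower (22.6% against 36.2%), and 9 did not pass. Their libraries did not overlap between the lines for 22 genes, against 72.5% of all genes, and 10 were called with a log2 difference of no less than 1, against 37.7%. The median log2 fold change was 0.06 over the members and -0.02 over all genes. Scaling by library size alone, with no TMM factors, moved the median of all genes to -0.26 and gave 13 members higher and 13 lower.

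Sterol synthesis starts with ACAT2, which joins acetyl-CoA units, and HMGCS1, which makes HMG-CoA. HMGCS1 was at 99.3, 84.0 and 95.8 CPM in vehicle-treated HCT 116p53-/- cells and at 181, 255 and 226 in the libraries labelled uL3Δ. All 3 libraries labelled uL3Δ were above every parental one (1.25 ± 0.12, adjusted p = 3e-08), and with Act D the values were 91.0, 95.3 and 105 against 233, 246 and 197 (1.22 ± 0.12, adjusted p = 4.8e-08). ACAT2 overlapped with vehicle, at means of 49.5 ± 3.78 and 50.3 ± 2.30 CPM (SD, n = 3), and did not overlap with Act D, where it was higher by 0.27 ± 0.08 (adjusted p = 0.0081). That last call was lost with scaling by library size (0.03, adjusted p = 0.82), after a correction of each library for the GC content and length of transcripts (0.05, adjusted p = 0.59), with no filter (0.24, adjusted p = 0.082) and without replicate 3 of either Act D group (adjusted p = 0.056 and 0.071). With vehicle, the correction for GC content and length called ACAT2 lower in the libraries labelled uL3Δ (-0.16, adjusted p = 0.048).

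The kinases and the decarboxylase that follow did not move as 1 block. MVK, the mevalonate kinase, was at 15.9, 18.4 and 15.6 CPM in vehicle-treated HCT 116p53-/- cells and at 10.5, 13.1 and 9.72 in the libraries labelled uL3Δ, without overlap, and was lower (-0.57 ± 0.13, adjusted p = 0.00077). PMVK, the next kinase, was higher, from a mean of 6.70 ± 1.02 to 10.1 ± 1.07 CPM (0.59 ± 0.16, adjusted p = 0.0039), a call lost after the correction for GC content and length (0.35, adjusted p = 0.054) and with scaling by library size (adjusted p = 0.098). MVD, which makes isopentenyl diphosphate, overlapped at means of 57.3 ± 8.01 and 53.8 ± 2.71 CPM. IDI1, the isomerase, was higher (0.71 ± 0.12, adjusted p = 2.8e-05), with 85.6, 70.5 and 72.1 CPM against 97.8, 146 and 128. FDPS was at 105, 94.8 and 87.4 CPM in HCT 116p53-/- cells and at 202, 224 and 186 in the libraries labelled uL3Δ, which is 2.13-fold higher (1.09 ± 0.10, adjusted p = 1.1e-08). The lowest of the latter was well above the highest parental library. FDPS has pseudogene copies, so that its counts depend on how RSEM divided shared reads.

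The branch from farnesyl diphosphate into sterols opens with FDFT1 and SQLE, the squalene epoxidase, an oxygen-dependent and rate-limiting step. SQLE was at 34.5, 34.6 and 34.1 CPM with vehicle in HCT 116p53-/- cells and at 125, 159 and 149 in the libraries labelled uL3Δ, and with Act D at 37.3, 39.9 and 37.1 and 194, 189 and 186. The parental replicates lay within 1 CPM of each other with vehicle, and every library labelled uL3Δ was far above them. SQLE was 4.20-fold higher with vehicle (2.07 ± 0.09, adjusted p = 7.9e-13) and 4.98-fold higher with Act D (2.32 ± 0.09, adjusted p = 2.5e-13), more than any other sterol enzyme in each comparison. FDFT1 was higher too, from 116, 109 and 109 to 223, 266 and 249.9 CPM (1.14 ± 0.08, adjusted p = 1.1e-09).

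LSS, the lanosterol synthase that closes the sterol ring, was the exception among the later steps. It was at 40.9, 50.4 and 46.7 CPM in vehicle-treated HCT 116p53-/- cells and at 35.6, 29.8 and 29.6 in the libraries labelled uL3Δ, and with Act D at 48.8, 46.4 and 49.1 and 35.6, 25.5 and 29.6. The libraries labelled uL3Δ were below every parental library in both treatments (-0.54 ± 0.12, adjusted p = 0.00045; -0.66 ± 0.12, adjusted p = 9e-05). By the test used throughout, LSS and MVK were the 2 of 18 sterol enzymes that were lower, with vehicle and with Act D alike, where 11 and 12 were higher. The median over the 18 was 0.65 with vehicle and 0.76 with Act D.

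Of the enzymes that turn lanosterol into cholesterol, CYP51A1, MSMO1, EBP, SC5D and DHCR7 were higher and TM7SF2, NSDHL and HSD17B7 did not pass the test in either treatment. SC5D, the sterol C5-desaturase, was at 44.2, 41.4 and 41.6 CPM in vehicle-treated HCT 116p53-/- cells and at 126, 174 and 162 in the libraries labelled uL3Δ, 3.63-fold higher (1.86 ± 0.10, adjusted p = 1.8e-11). Replicate 1 was the lowest of the latter, far above every parental library. MSMO1, the C4-methyl sterol oxidase, was at 53.3, 44.8 and 52.5 CPM against 66.5, 118 and 104 (0.94 ± 0.15, adjusted p = 2.6e-05). Replicate 1 of the vehicle-treated libraries labelled uL3Δ was again apart from its group for MSMO1, nearest to the parental libraries. CYP51A1, the lanosterol demethylase, was higher by 0.74 ± 0.09, EBP, the sterol isomerase, by 0.99 ± 0.10, and DHCR7, which catalyzes the last step to cholesterol in 1 of the 2 branches, by 0.35 ± 0.13. The call of DHCR7 (adjusted p = 0.020) was lost with scaling by library size (0.10, adjusted p = 0.51) and without parental vehicle replicate 3 or uL3Δ vehicle replicates 2 or 3 (adjusted p = 0.066, 0.075 and 0.091). TM7SF2 overlapped at means of 13.6 and 14.2 CPM, NSDHL at 21.9 and 22.3, and HSD17B7 at 10.0 and 9.02, the last with less certain counts because a pseudogene shares its sequence. STARD4, which carries sterols between membranes, was at 46.7, 35.3 and 40.1 CPM against 74.4, 92.2 and 83.9, without overlap (1.04 ± 0.11, adjusted p = 1.5e-07).

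**Figure D2:**
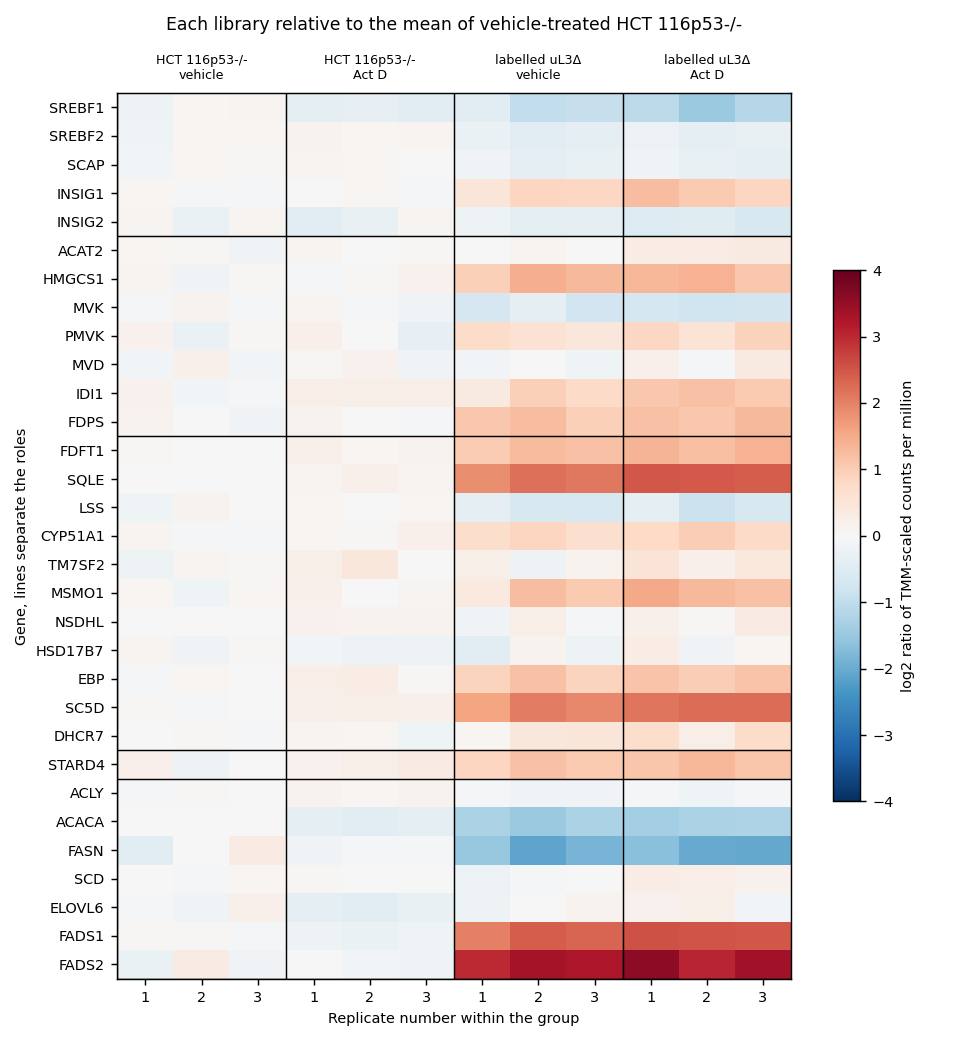
Each of the 12 libraries relative to the mean of vehicle-treated HCT 116p53-/- cells, as the log2 ratio of TMM-scaled CPM, with genes in rows by role and libraries in columns. Red rows in the right 6 columns include 11 of the 18 sterol enzymes, INSIG1, STARD4, FADS1 and FADS2, the bluest are SREBF1, MVK, LSS, ACACA and FASN, rows such as MVD, NSDHL and ACLY stay near white, and vehicle replicate 1 labelled uL3Δ is paler than its group for MSMO1 and SC5D.

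The enzymes of fatty acid synthesis differed in both directions. FASN was at 685, 948 and 1157 CPM in vehicle-treated HCT 116p53-/- cells, a spread in which replicate 1 was the lowest and replicate 3 the highest, and at 324, 213 and 255 in the libraries labelled uL3Δ. With Act D it was at 839, 885 and 886 and 289, 229.9 and 224. The groups did not overlap in either treatment, and FASN was 3.52-fold lower with vehicle (-1.82 ± 0.17, adjusted p = 1.9e-08) and 3.51-fold lower with Act D (-1.81 ± 0.17, adjusted p = 2.3e-08). ACACA, the acetyl-CoA carboxylase, was at 193, 194 and 189 CPM with vehicle in HCT 116p53-/- cells and at 79.8, 68.4 and 79.3 in the libraries labelled uL3Δ, which is 2.53-fold lower (-1.34 ± 0.08, adjusted p = 5.3e-11). With Act D it was 1.84-fold lower (-0.88 ± 0.08, adjusted p = 2.3e-08).

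FADS2 and FADS1, which introduce the delta-6 and delta-5 double bonds into polyunsaturated fatty acids, stood at the other end. FADS2 was at 6.61, 10.1 and 7.37 CPM in vehicle-treated HCT 116p53-/- cells and at 63.3, 80.4 and 75.0 in the libraries labelled uL3Δ, 9.11-fold higher (3.19 ± 0.16, adjusted p = 3.9e-12). FADS1 was at 45.8, 45.9 and 41.8 CPM against 180.1, 238 and 225, 4.82-fold higher (2.27 ± 0.10, adjusted p = 6.8e-13). Both were also higher with Act D, by 3.44 ± 0.16 for FADS2 and 2.73 ± 0.10 for FADS1, and no library labelled uL3Δ overlapped a parental one in either treatment. The 2 genes are annotated on opposite strands of chromosome 11 in overlapping intervals (hg38, 61799627 to 61829318 for FADS1 on the minus strand and 61792980 to 61867354 for FADS2 on the plus strand). Since the sources do not state that strand was used in counting, reads from the overlap may not be told apart.

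ACLY, which supplies cytosolic acetyl-CoA, SCD, which makes monounsaturated fatty acids, and ELOVL6, an elongase, overlapped between the lines with vehicle, at means of 346 and 322, 592 and 561, and 36.4 and 36.0 CPM. With Act D all 3 separated: ACLY was lower (-0.24 ± 0.07, adjusted p = 0.0075), SCD higher (0.24 ± 0.08, adjusted p = 0.014) and ELOVL6 higher (0.49 ± 0.12, adjusted p = 0.0014). With scaling by library size the SCD value was -0.0068 and that of ELOVL6 lost its call (adjusted p = 0.089), and the correction for GC content and length ended the call of ACLY (adjusted p = 0.16). The call of SCD was also lost with no filter (adjusted p = 0.084) and without parental Act D replicate 3 or uL3Δ Act D replicates 1 or 2 (adjusted p = 0.092, 0.057 and 0.059).

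The regulators were mostly lower. SREBF1, whose products drive fatty acid genes most, was at 88.7, 109 and 111 CPM in vehicle-treated HCT 116p53-/- cells and at 77.4, 51.7 and 54.6 in the libraries labelled uL3Δ. Replicate 1 of the latter was the nearest to the parental range and did not reach it (-0.75 ± 0.14, adjusted p = 8e-05). SREBF2, whose product drives sterol genes most, was at 91.3, 108 and 108 against 84.7, 74.8 and 77.6 CPM (-0.38 ± 0.09, adjusted p = 0.00074), a smaller difference without overlap. SCAP was at 64.0, 73.1 and 71.7 against 63.1, 54.7 and 56.4 CPM (-0.26 ± 0.09, adjusted p = 0.013), and the correction for GC content and length ended this call (-0.10, adjusted p = 0.18), as did leaving out parental vehicle replicate 2 or uL3Δ vehicle replicate 2 (adjusted p = 0.057 and 0.062). INSIG1 alone of the 5 was higher, at 52.4, 47.4 and 47.9 against 69.5, 88.8 and 87.1 CPM (0.73 ± 0.11, adjusted p = 8.5e-06). Its paralog INSIG2 overlapped at 17.4, 13.3 and 17.4 and 13.8, 12.1 and 12.5 CPM, with a fitted difference of -0.33 ± 0.15 that missed the threshold and passed it with scaling by library size (adjusted p = 0.0030) and upper-quartile factors (0.035).

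With Act D the same comparison of the lines was made on the other 6 libraries. Of the 31 genes 27 passed the test (87.1% against 70.4% of all genes), 18 higher (58.1% against 35.1%) and 9 lower (29.0% against 35.3%), and their libraries did not overlap for 27 (74.1% of all genes). A call with a log2 difference of no less than 1 was made for 10 members, against 37.1% of all genes. The median was 0.49 over the members and -0.02 over all genes. The 22 genes called with vehicle were all called here in the same direction, and ACAT2, SCD, ELOVL6, ACLY and INSIG2 were added. INSIG1 was at 49.8, 52.5 and 47.6 CPM in HCT 116p53-/- cells, and the libraries labelled uL3Δ were above them at 117, 101 and 89.9 (1.04 ± 0.11, adjusted p = 1.3e-07). SREBF1 (-0.85 ± 0.14, adjusted p = 3.5e-05), SREBF2 (-0.41 ± 0.09, adjusted p = 0.00039) and SCAP (-0.34 ± 0.09, adjusted p = 0.0024) were lower. INSIG2 was lower by -0.37 ± 0.16 (adjusted p = 0.044), a call lost with DESeq2 (adjusted p = 0.054), with the replicate number as a block (0.051) and without parental Act D replicate 3 or uL3Δ Act D replicates 1 or 3 (0.19, 0.090 and 0.074). The correction for GC content and length ended the call of SCAP (adjusted p = 0.054).

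With Act D, SQLE and SC5D again had the largest differences of the 18 sterol enzymes. SC5D was at 49.3, 49.9 and 48.4 CPM in HCT 116p53-/- cells and at 185, 199 and 199 in the libraries labelled uL3Δ (1.98 ± 0.10, adjusted p = 1e-11), where the replicates were closer to each other than with vehicle. MSMO1 was at 57.7, 51.3 and 53.7 against 143, 125 and 112 CPM (1.22 ± 0.15, adjusted p = 1.5e-06). In this treatment no replicate of the libraries labelled uL3Δ stood near the parental range for either gene. FDFT1 was at 128, 119 and 123 against 284, 254 and 291 CPM (1.16 ± 0.08, adjusted p = 1e-09) and FDPS at 105, 96.6 and 92.5 against 215, 200.2 and 234 (1.14 ± 0.10, adjusted p = 7.6e-09). IDI1, CYP51A1, EBP and DHCR7 were higher by 0.85 ± 0.12, 0.75 ± 0.09, 0.88 ± 0.10 and 0.57 ± 0.13, PMVK by 0.78 ± 0.17 and STARD4 by 0.94 ± 0.11, and MVK was lower (-0.72 ± 0.14, adjusted p = 0.00016). MVD, TM7SF2, NSDHL and HSD17B7 were the 4 of 31 that did not pass, all with overlapping libraries, at means of 58.8 and 64.5, 16.1 and 17.7, 24.1 and 25.1, and 8.85 and 10.6 CPM.

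**Figure D3:**
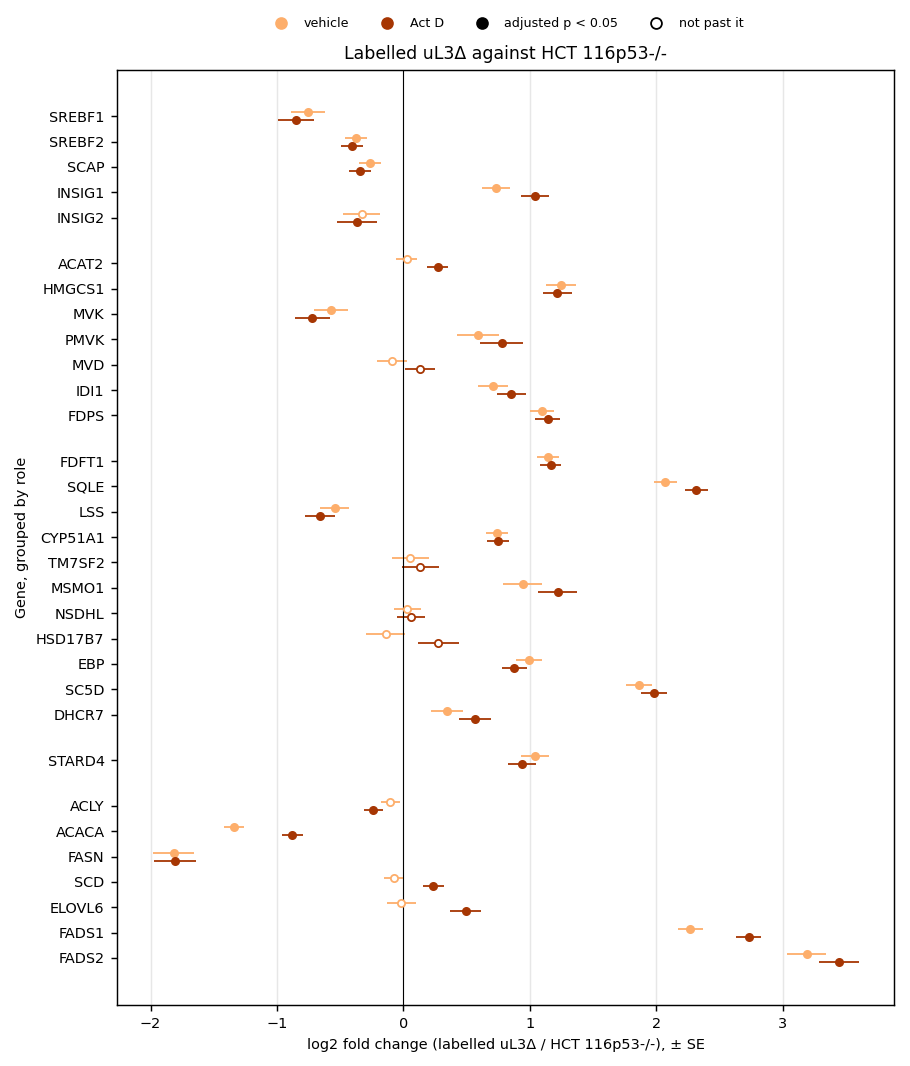
Log2 fold change of the libraries labelled uL3Δ over HCT 116p53-/- for each gene with vehicle (light) and with Act D (dark), with bars of ± 1 SE, filled where the adjusted p was under 0.05. FADS2, FADS1, SQLE and SC5D lie farthest right and FASN and ACACA farthest left, at 3.19 ± 0.16 and -1.82 ± 0.17 with vehicle at the ends.

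The response to Act D was compared in each line. In HCT 116p53-/- cells 2 of the 31 genes passed the test (6.45%, against 18.7% of all genes), both lower and both enzymes of fatty acid synthesis, and 0 passed as higher (7.59% of all genes; 11.1% were lower). The libraries did not overlap for 10 of the 31, against 38.2% of all genes, and 0 were called with a change of at least 1 in size on the log2 scale (2.89% of all genes). ACACA fell from 193, 194 and 189 CPM to 146, 142 and 146 (-0.41 ± 0.08, adjusted p = 0.0012), with every Act D library below every vehicle library. ELOVL6 fell from 34.7, 32.6 and 41.9 to 28.2, 26.6 and 29.4 CPM (-0.38 ± 0.12, adjusted p = 0.033), also without overlap. The call of ELOVL6 was lost with upper-quartile factors (adjusted p = 0.053), with the replicate number as a block (0.052) and after the correction for GC content and length (0.060). It was also lost without parental vehicle replicate 3 or any of the Act D replicates 1, 2 and 3 (adjusted p = 0.17, 0.091, 0.12 and 0.061). Of the 18 sterol enzymes 0 passed in edgeR, 0 had an unadjusted p under 0.05 and 0 passed in DESeq2, and 15 had a fitted value above 0, with a median of 0.08 against 0.02 over all genes. Of all 31 genes, 1 was higher and 3 were lower at an unadjusted p under 0.05. The correction for GC content and length gave 3 members higher and 2 lower. Among the sterol enzymes it called SC5D higher (0.34, adjusted p = 0.013). Its value for SC5D in the libraries labelled uL3Δ was 0.35 (adjusted p = 0.0097).

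SREBF1 was at 80.7, 82.4 and 77.2 CPM with Act D in HCT 116p53-/- cells, below all 3 vehicle libraries, and its difference missed the threshold (-0.36 ± 0.13, adjusted p = 0.072). It passed with no filter (adjusted p = 0.0071), with only the 2 groups in the fit (0.010), after the correction for GC content and length (-0.30, adjusted p = 0.017), with scaling by library size (0.045) and without parental vehicle replicate 1 (0.039). SREBF2 (0.11 ± 0.08, adjusted p = 0.43), SCAP (0.06 ± 0.09, adjusted p = 0.69), INSIG1 (0.02 ± 0.11, adjusted p = 0.93) and INSIG2 (-0.19 ± 0.15, adjusted p = 0.4) overlapped. SREBF2 passed after the correction for GC content and length (0.17, adjusted p = 0.049).

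In the libraries labelled uL3Δ, 6 of the 31 genes passed with Act D against vehicle (19.4%, against 11.9% of all genes), 5 higher (3.51% of all genes) and 1 lower (8.40%). The libraries did not overlap for 9, against 27.6% of all genes, and 0 were called with a change of at least 1 in size on the log2 scale (1.29% of all genes). SQLE rose from 125, 159 and 149 to 194, 189 and 186 CPM (0.39 ± 0.08, adjusted p = 0.0051), and SC5D from 126, 174 and 162 to 185, 199 and 199 (0.34 ± 0.10, adjusted p = 0.032). IDI1 rose from 97.8, 146 and 128 to 159.6, 172 and 157 CPM (0.39 ± 0.12, adjusted p = 0.036) and ACAT2 from 49.3, 52.9 and 48.7 to 61.2, 60.6 and 63.7 (0.30 ± 0.08, adjusted p = 0.028). The Act D libraries of these 4 sterol enzymes were all above their vehicle libraries. SCD rose from 508, 575 and 600.0 to 734, 713 and 668 CPM (0.33 ± 0.08, adjusted p = 0.012), and SREBF1 fell from 77.4, 51.7 and 54.6 to 49.5, 37.0 and 46.5 (-0.46 ± 0.14, adjusted p = 0.044). INSIG1 did not overlap, at 69.5, 88.8 and 87.1 and 117, 101 and 89.9 CPM, and missed the threshold (0.33 ± 0.11, adjusted p = 0.053), which it passed with DESeq2 (adjusted p = 0.026) and upper-quartile factors (0.022). SREBF2 (0.07 ± 0.09, adjusted p = 0.65), SCAP (-0.02 ± 0.09, adjusted p = 0.93) and INSIG2 (-0.23 ± 0.16, adjusted p = 0.38) did not pass either.

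These calls rested on few libraries. Replicate 1 of the vehicle-treated libraries labelled uL3Δ was the lowest of its group for 10 of the 18 sterol enzymes and replicate 2 the highest for 14, where over all genes they were so for 41.7% and 32.7%. Without that replicate 1 the number of members called was 2, and it was also 2 without Act D replicate 1 or 2, and 3 without Act D replicate 3. SQLE kept its call when any 1 library was left out, and lost it only with scaling by library size among the alternatives (0.29, adjusted p = 0.051), a setting that left 1 of the 31 genes called, SREBF1. With the replicate number as a block 3 were called, and SREBF1 (adjusted p = 0.056) and IDI1 (0.053) were among the calls lost. SCD lost its call with scaling by library size (adjusted p = 0.14) and with only the 2 groups in the fit (0.058). Leaving out Act D replicate 1 ended the call of SCD too (0.058). The call of ACAT2 was lost with scaling by library size (adjusted p = 0.22), no filter (0.21), the replicate block (0.053), the correction for GC content and length (0.060) and only the 2 groups in the fit (0.089), and without any 1 of the 6 libraries but vehicle replicate 2 (0.069 to 0.14). Without vehicle replicate 1, SREBF1 was at -0.26 (adjusted p = 0.22), IDI1 at 0.24 (adjusted p = 0.14) and SC5D at 0.21 (adjusted p = 0.13). The calls of these genes were also lost with only the 2 groups in the fit (adjusted p = 0.071, 0.083 and 0.10). Leaving out Act D replicate 2 or 3 ended them too (0.058 to 0.15). IDI1 and SC5D also lost theirs with scaling by library size (0.13 and 0.14) and without Act D replicate 1 (0.078 and 0.053). SREBF1 did so with upper-quartile factors (0.076), SC5D with no filter (0.056) and IDI1 without vehicle replicate 3 (0.066).

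**Figure D4:**
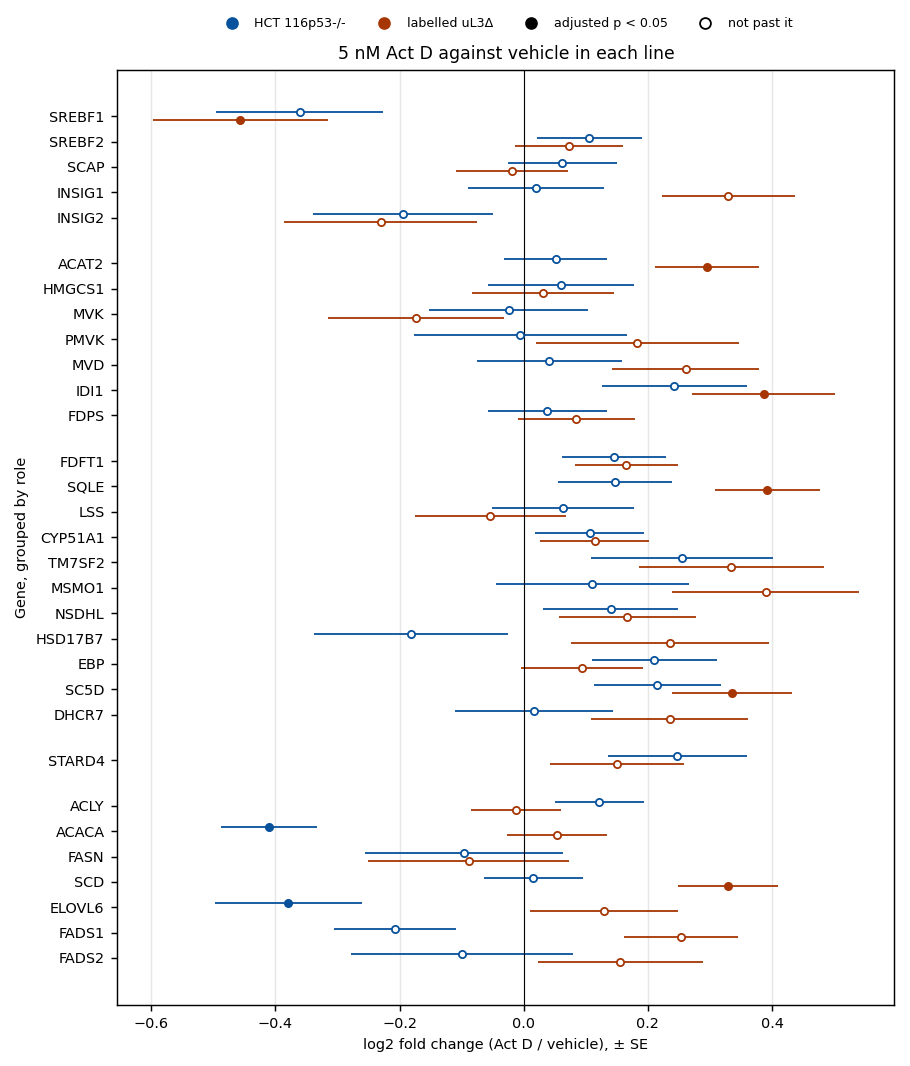
Log2 fold change of Act D over vehicle for each gene, with HCT 116p53-/- cells and the libraries labelled uL3Δ in their own colours, with bars of ± 1 SE, filled where the adjusted p was under 0.05. Filled points are ACACA and ELOVL6, left of 0, in HCT 116p53-/- cells, and SREBF1, left of 0, and ACAT2, IDI1, SQLE, SC5D and SCD, right of 0, in the libraries labelled uL3Δ.

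The responses of the lines were set against each other with an interaction term, the response in the libraries labelled uL3Δ minus that in HCT 116p53-/- cells. Of the 31 genes 2 passed (6.45%, against 6.53% of all genes), both higher (3.3% of all genes) and 0 lower (3.23%), with 0 of at least 1 in size on the log2 scale (1.81%). ACACA, which fell in HCT 116p53-/- cells, was at 79.8, 68.4 and 79.3 CPM with vehicle in the libraries labelled uL3Δ and at 74.3, 80.6 and 81.3 with Act D, and the difference of the responses was 0.46 ± 0.11, adjusted p = 0.019. FADS1 was at 45.8, 45.9 and 41.8 CPM with vehicle and 38.6, 37.2 and 39.7 with Act D in HCT 116p53-/- cells and at 180.1, 238 and 225 and 262, 256 and 249 in the libraries labelled uL3Δ, with a difference of 0.46 ± 0.13, adjusted p = 0.049. Within each line alone the response of FADS1 did not pass (adjusted p = 0.16 in HCT 116p53-/- cells and 0.084 in the libraries labelled uL3Δ). The interaction calls of ACACA and FADS1 were lost with no filter (adjusted p = 0.060 and 0.073). That of FADS1 was also lost with scaling by library size (0.071) and with the replicate number as a block (0.079). Without 1 library the call of ACACA was lost for any parental Act D replicate (adjusted p = 0.050 to 0.068) and for uL3Δ Act D replicate 2 or 3 (0.060 and 0.074), and that of FADS1 for every library but uL3Δ vehicle replicate 2 (0.055 to 0.12). Of the 18 sterol enzymes 0 passed in edgeR, 0 had an unadjusted p under 0.05 and 0 passed in DESeq2. That 4 of them passed in the libraries labelled uL3Δ and 0 in HCT 116p53-/- cells is thus not shown to be a difference between the lines. The regulators had values of -0.10, adjusted p = 0.83 for SREBF1, -0.03, adjusted p = 0.92 for SREBF2, -0.08, adjusted p = 0.77 for SCAP, 0.31, adjusted p = 0.25 for INSIG1 and -0.04, adjusted p = 0.95 for INSIG2. The comparisons between lines and those of Act D share libraries, and so do not test these genes independently.

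Other genes of the same biology were counted from 6 lists. These lists were chosen with earlier results of these data known. The genes whose values are given had the smallest p in a direction within their list, and so are not typical of it. In the line comparison with vehicle, where 35.1% of all genes were higher and 36.2% lower, 4 of 8 genes that process or degrade SREBP and its partners were lower (50%) and 1 was higher (12.5%), with a median of -0.43. The share called in either direction, 62.5%, was below the 71.3% of all genes. MBTPS1, the protease that makes the first cut in SREBP, was at 132, 139 and 145 CPM in vehicle-treated HCT 116p53-/- cells and at 50.3, 45.2 and 46.3 in the libraries labelled uL3Δ (-1.55 ± 0.08, adjusted p = 5.3e-12), with no overlap. MBTPS2, the protease of the second cut, rose in the libraries labelled uL3Δ when treated with Act D, from 10.4, 9.31 and 8.17 to 13.9, 13.0 and 15.4 CPM (0.60 ± 0.14, adjusted p = 0.011), with an interaction of 0.78 ± 0.20, adjusted p = 0.023.

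Of the genes listed as partners of sterol enzymes, most pass electrons to them or hold them together. All 7 were called in both line comparisons, where 71.3% and 70.4% of all genes were, with 6 of 7 higher (85.7%, against 35.1% of all genes in each) and 1 lower. CYB5A, a cytochrome b5 that serves desaturases and oxidases, was at 9.07, 7.51 and 6.82 CPM with vehicle in HCT 116p53-/- cells and at 44.3, 42.2 and 41.2 in the libraries labelled uL3Δ (2.45 ± 0.12, adjusted p = 2.6e-12). CYB5B, its outer mitochondrial membrane form, was the 1 that was lower, at 339, 329 and 323 against 85.5, 109.8 and 103 CPM (-1.73 ± 0.09, adjusted p = 8.6e-12). The isoprenoid branch, which uses the same farnesyl units for prenylation, dolichol and ubiquinone, was called for 15 of 15 genes with vehicle, where 71.3% of all genes were, 4 higher (26.7% against 35.1%) and 11 lower (73.3% against 36.2%), with a median of -0.36.

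Genes of sterol transport and of LXR, the oxysterol-sensing receptors, were higher for 11 of 14 (78.6%, against 35.1% of all genes) and lower for 2 (14.3% against 36.2%) in the line comparison with vehicle. ABCA1, which exports cholesterol, was at 0.713, 0.62 and 0.664 CPM in HCT 116p53-/- cells and at 25.5, 25.9 and 20.9 in the libraries labelled uL3Δ (5.16 ± 0.18, adjusted p = 4.2e-14), and fell there with Act D to 11.5, 11.9 and 11.7 (-1.05 ± 0.13, adjusted p = 4.5e-05). MYLIP, a ubiquitin ligase induced by LXR, rose with Act D in HCT 116p53-/- cells from 9.98, 8.81 and 10.4 to 18.7, 21.1 and 18.8 CPM (1.00 ± 0.15, adjusted p = 0.00013). In the libraries labelled uL3Δ it was at 10.6, 13.4 and 17.1 CPM with vehicle and 21.2, 18.0 and 18.2 with Act D, also without overlap. The interaction of line and Act D was called for 0 of the 14 genes of this list.

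Other genes of fatty acid synthesis were lower for 11 of 21 tested (52.4%, against 36.2% of all genes) and higher for 7 (33.3%, near the 35.1% of all genes), with a median of -0.41, and THRSP of that list did not pass the filter. ELOVL5, the elongase of polyunsaturated fatty acids that works with FADS1 and FADS2, was at 46.2, 40.8 and 41.4 CPM against 121, 173 and 165 with vehicle (1.84 ± 0.11, adjusted p = 7.1e-11). ACSL5, an acyl-CoA synthetase, was at 177, 155 and 159 against 11.9, 11.8 and 10.9 CPM (-3.83 ± 0.10, adjusted p = 6.7e-16). Genes of fatty acid oxidation, the opposite route, were higher for 12 of 17 (70.6%, against 35.1% of all genes) and lower for 3 (17.6% against 36.2%), with a median of 0.87. HADHA, a subunit of the mitochondrial trifunctional protein, was at 119, 107 and 109.5 against 394, 424 and 401 CPM (1.86 ± 0.08, adjusted p = 3e-13), and PPARA, a receptor that turns on this route, at 14.6, 17.8 and 18.4 against 3.13, 5.00 and 3.85 (-2.05 ± 0.17, adjusted p = 6.2e-09). In the comparison of the lines with Act D, where 35.1% of all genes were higher and 35.3% lower, 1 was higher and 5 lower of 8 genes of SREBP processing, 2 and 9 of 15 of the isoprenoid branch, 9 and 3 of 14 of sterol transport and LXR, 7 and 12 of 21 of other fatty acid synthesis, and 11 and 3 of 17 of fatty acid oxidation. With Act D against vehicle in HCT 116p53-/- cells, 4 of 14 genes of sterol transport and LXR were higher (28.6%, against 7.59% of all genes) and 0 lower, and of the other lists between 0 and 3 genes passed, which is at most 28.6% of a list against 18.7% of all genes. In the libraries labelled uL3Δ between 1 and 3 genes of each list passed, 4.76% to 25% against 11.9% of all genes.

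**Figure D5:**
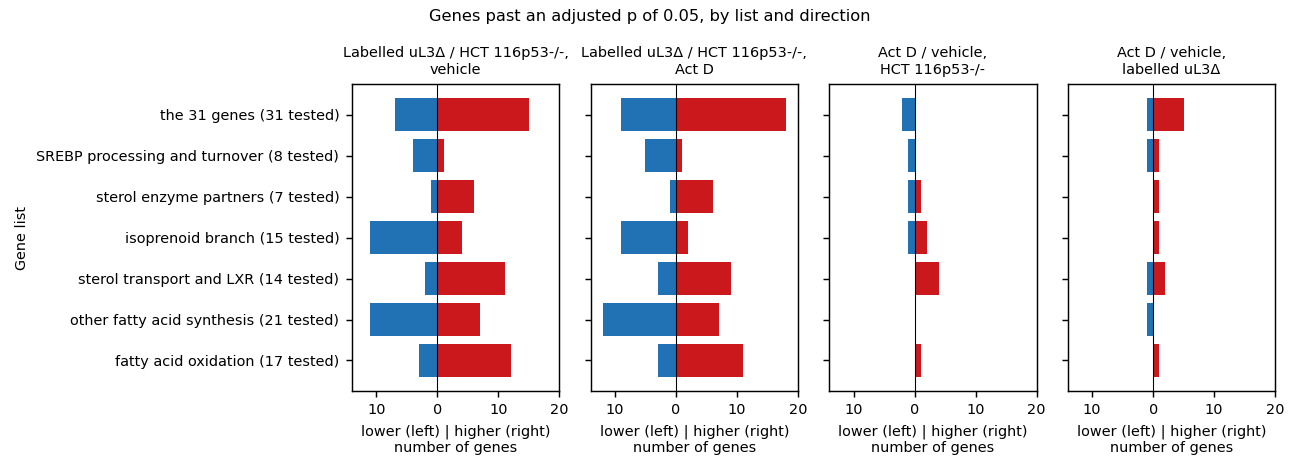
Number of genes past an adjusted p of 0.05 among the 31 genes and in each of 6 related lists, with genes that were lower as blue bars to the left and genes that were higher as red bars to the right, 1 panel for each of the 4 comparisons between groups. The line comparisons on the left hold bars in both directions for every list, and those of Act D on the right hold at most 5 genes on a side, the highest being the 5 of the 31 genes in the libraries labelled uL3Δ.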

How the data were processed

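RNA-seq libraries of total RNA (TruSeq RNA kit) were made from 12 samples in 4 groups of 3, and grouped by the labels' line and treatment. According to the study's methods, reads were trimmed, filtered of contaminants and assigned to Ensembl genes on hg38 with RSEM 1.2.25. The Ensembl release and the use of strand are not given in the sources used here. The authors deposited RSEM expected counts and TPM for each sample. The file of vehicle-treated HCT 116p53-/- replicate 2 held 226788 transcripts in place of genes, and its expected counts and TPM were summed by gene. Sample descriptions number the Act D libraries labelled uL3Δ differently from the titles, and the titles were used.

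Expected counts as deposited were rounded to whole numbers. Genes were named with GENCODE 44 (60261 of 60617 matched) and filtered with filterByExpr, which left 15692. TMM factors lay between 0.847 and 1.15. All 12 libraries were fitted in 1 model by group with edgeR 4.0.16 in R 4.3.3 (quasi-likelihood test, common dispersion 0.0117), and genes past a Benjamini-Hochberg adjusted p of 0.05 were called. CPM is a normalized count, scaled with TMM factors. TPM, as deposited by the authors, was used to order genes within a group and for levels and sums of markers. It also served to describe the shift of the median gene between the lines and the members relative to it, without a test. Tables and plots were made in Python 3.11 with pandas 2.3.3 and matplotlib 3.10.9. Total counts of 10087925 to 21138886 per library set the precision of low genes.

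The members and lists were chosen with earlier results of these data known. Fold changes were given for members that were called, for the 5 regulators in every comparison, and for some of the genes that had the smallest p in each direction within a related list. Alternatives were DESeq2 1.42.0, library size alone, upper-quartile factors, no filter, a filter of 1 CPM in 3 libraries, fits of only the 2 groups compared, the replicate number as a block, each library left out and, added after seeing the data, a correction of each library for GC content and length of the longest transcript (lowess, span 0.3, 99.6% of tested genes with a value). On simulated counts for the vehicle comparison of the lines (15271 genes, 200 changed), edgeR recovered 195 with 14 false calls, DESeq2 193 with 21 and the corrected fit 194 with 13. In the deposited libraries of that comparison 71.3% of the 15692 genes were called. Recovery with so large a share changed was not tested. Replicates of a group differed by more than sampling noise (chi-square per degree of freedom of 7.27 to 108), so that each was counted once. Promoters were RefSeq's on GRCh38.p14.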

Additional observations from a re-analysis of the deposited data

Results flagged for a closer look

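For 2 of the 31 genes the response to Act D passed the threshold for a difference between the lines, by the interaction term of edgeR's quasi-likelihood test. For ACACA the response in the libraries labelled uL3Δ was above that in HCT 116p53-/- cells by 0.46 on the log2 scale (SE 0.11, adjusted p = 0.019). For FADS1 the difference was 0.46 (SE 0.13, adjusted p = 0.049), with the Act D libraries below the vehicle libraries in HCT 116p53-/- cells and above them in the libraries labelled uL3Δ, in 3 of 3 libraries each. Libraries did not overlap in these comparisons for 38.2% and 27.6% of all genes. By the same test the response of FADS1 did not pass within either line (adjusted p = 0.16 in HCT 116p53-/- cells and 0.084 in the libraries labelled uL3Δ). The share of members called, 6.45%, was near the 6.53% of all genes. Over the alternatives the ACACA difference lay between 0.39 and 0.50, with adjusted p between 0.0031 and 0.074. For FADS1 it lay between 0.35 and 0.54, with adjusted p between 0.021 and 0.12. The call of FADS1 was lost with library size alone (0.071), no filter (0.073), the replicate block (0.079) and when any 1 library other than uL3Δ vehicle replicate 2 was left out.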

How the results depend on the processing

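Of 1071 alternative values for 74 named fold changes, 951 kept their direction and side of the threshold, 88 lost a call, 16 gained one and 16 changed sign. The number of members called was between 20 and 26 in the line comparison with vehicle and between 24 and 27 with Act D. In HCT 116p53-/- cells with Act D against vehicle it was 2, and 4 with library size alone, 1 with upper-quartile factors, 5 after the GC and length correction, 4 with only the 2 groups, and 1 to 4 with a library left out. In the libraries labelled uL3Δ it was 6, and 1 with library size alone, 1 with only the 2 groups and 2 to 9 with a library left out. In the interaction it was 2, and 1 with library size alone, 0 with no filter and 0 to 2 with a library left out. Replicate numbers did not pair the libraries (correlations of same-numbered deviations between -0.104 and 0.101), and with the replicate number as a block these 3 counts were 1, 3 and 1. RPL3 changed sign in the line comparison with library size alone (-0.11 with vehicle, -0.13 with Act D) and after the GC and length correction (-0.024 with vehicle). For the response to Act D it did so with upper-quartile factors (0.021 in HCT 116p53-/- cells, 0.041 in the libraries labelled uL3Δ, 0.020 in the interaction) and after the correction in the interaction (0.039). With a library left out RPL3 lay between 0.073 and 0.16 and between 0.045 and 0.14 in the line comparisons, between -0.026 and 0.0095 and between -0.085 and 0.031 for Act D, and between -0.083 and 0.045 in the interaction. Other changes of sign came with library size alone for SCD in the line comparison with Act D (-0.0068) and, for Act D against vehicle, SCAP (-0.037) and INSIG1 (-0.080) in HCT 116p53-/- cells and SREBF2 (-0.032) in the libraries labelled uL3Δ. SCAP in the latter was 0.045 with upper-quartile factors and 0.032 after the correction. With a library left out, INSIG1 in HCT 116p53-/- cells lay between -0.016 and 0.066, SCAP in the libraries labelled uL3Δ between -0.078 and 0.041, and in the interaction SREBF1 between -0.21 and 0.10, SREBF2 between -0.078 and 0.041 and INSIG2 between -0.14 and 0.10. The causes were not tested. Counts over the related lists moved by more than 1.5 times with library size alone, in comparisons of Act D and the interaction.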
